A study of Mus musculus with 95 samples.

Results

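Fos, Fosb, Jun, Junb, Egr1, Egr3, Nr4a1, Klf2, Klf4 and Ier2 are immediate early genes, and they were followed here as a set of 10 of the 53465 genes in the count table. They were chosen by name, from the symbols in the table, and all 10 were found. Immediate early genes are transcribed within minutes of a signal, because the factors that switch them on, among them SRF, the Elk proteins and CREB, are already present and only need to be phosphorylated. Most of them encode transcription factors that pass the signal on to a later set of genes, and their RNAs are short-lived. In blood stem cells they have been studied for their part in quiescence and in the response to stress, and they are also known to be induced while tissue is dissociated and cells are sorted.

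The study profiled mouse blood stem and progenitor cells during regeneration. Transplanted samples came from mice that received 900 cGy of irradiation and 8000 LSK cells (lineage-negative, cKit-positive, Sca-1-positive bone marrow cells), sampled 3, 4, 5, 6, 8, 10, 13 or 16 weeks later, and steady-state samples came from untreated mice. A set of 3 sorted populations named HSC, HPC-1 and HPC-2 were taken in both states. All mice were B6.SJL and labelled as 8-12 weeks of age. Each population had 3 libraries per week. At steady state HSC had 8 libraries, HPC-1 had 8 and HPC-2 had 7, which makes 95 libraries in 27 groups. RNA of sorted cells was amplified by SMART-Seq v4, a method for few cells, and sequenced in bulk. In such libraries fewer cells of a type and less RNA per cell cannot be told apart. The labels do not say that libraries of a group came from separate mice, so every p measures the spread between these samples, which may be technical. The sort as described names no marker that separates donor from host cells.

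The libraries held between 3551908 and 8492759 counts (median 5628592), spread over 3827 to 15697 detected genes. Fewer than 10000 genes were detected in 12 libraries, 7 of them at steady state. Another set of 12 libraries formed 6 pairs whose counts were nearly the same (chi-square per degree of freedom 1.24 to 4.5, against 15.1 for the next closest pair), although the labels of each pair differed in week, state or population. Except where stated, calls of genes named below that change when either set of libraries is left out are given beside the result. The labels describe the same gate, CD48-negative and CD150-positive, for all 3 populations. The RNA differed: the median of Cd48 was 13.0 CPM (counts scaled to the total of the library) in HSC, 1055 CPM in HPC-1 and 460 CPM in HPC-2, and that of Slamf1, which encodes CD150, was 90.8, 0 and 60.2 CPM in the same order. One label conflict was settled by the title, which placed an HPC-2 sample marked untreated at 3 weeks, and 2 titles with 10k were read as 10 weeks.

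The description of each library opens with a number, and every run of 12 numbers, called a block here, held the 9 transplanted libraries of 1 week together with 1 steady-state library of each population (no HPC-2 library in the block of 4 weeks). Week and block therefore cannot be told apart in the transplanted libraries. The steady-state libraries of a block had no week. What the numbers stand for is not given in the sources used here, so it is not known whether the steady-state libraries of a block were handled together with its transplanted ones. A block is named below by its week.

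Promoters of early genes can hold short motifs bound by signal-responsive factors, and 5 promoters are shown because their genes varied strongly between blocks and because they differ in the motifs they hold. RefSeq windows on GRCm38.p6 were at hand for 7 of the 10 genes (Fos, Fosb, Jun, Junb, Nr4a1, Klf2 and Klf4). Each line gives 200 bases, 5′ to 3′ on the strand of the gene, from chr12:85473690-85473889 (plus strand) for Fos, chr7:19310052-19310251 (minus) for Fosb, chr15:101266646-101266845 (plus) for Nr4a1, chr8:72318833-72319032 (plus) for Klf2 and chr4:55532476-55532675 (minus) for Klf4. Capitals mark the CRE core TGACG (the first part of TGACGTCA, the site of CREB and ATF factors), the Egr motif GCGGGGGCG and the TATA motif TATAAA, each on either strand.
Fos: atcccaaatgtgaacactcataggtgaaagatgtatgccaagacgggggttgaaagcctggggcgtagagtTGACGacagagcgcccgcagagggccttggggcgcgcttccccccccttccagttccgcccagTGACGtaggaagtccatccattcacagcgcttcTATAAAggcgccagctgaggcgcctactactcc
Fosb: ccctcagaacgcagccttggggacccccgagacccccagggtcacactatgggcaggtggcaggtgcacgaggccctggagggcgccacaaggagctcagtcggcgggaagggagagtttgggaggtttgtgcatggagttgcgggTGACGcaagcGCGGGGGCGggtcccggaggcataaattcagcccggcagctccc
Nr4a1: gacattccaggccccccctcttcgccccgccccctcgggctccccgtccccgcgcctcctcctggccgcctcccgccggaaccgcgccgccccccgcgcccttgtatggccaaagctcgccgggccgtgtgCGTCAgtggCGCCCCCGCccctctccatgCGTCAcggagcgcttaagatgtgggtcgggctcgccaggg
Klf2: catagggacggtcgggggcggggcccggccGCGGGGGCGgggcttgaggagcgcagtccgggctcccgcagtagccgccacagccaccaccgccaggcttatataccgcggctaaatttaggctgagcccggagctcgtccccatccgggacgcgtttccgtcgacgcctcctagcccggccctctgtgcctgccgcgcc
Klf4: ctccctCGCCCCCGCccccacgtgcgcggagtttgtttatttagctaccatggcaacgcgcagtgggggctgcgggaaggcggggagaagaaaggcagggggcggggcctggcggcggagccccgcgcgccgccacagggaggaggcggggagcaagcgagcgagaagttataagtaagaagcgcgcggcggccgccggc
In the 250 bases before the start, the CRE core was found in 6 of the 7 windows, all but that of Jun, and in 17.8% of all 32851 windows of the same length. The Egr motif was found in 4 of the 7, those of Fosb, Nr4a1, Klf2 and Klf4, and in 2.57% of all windows. TATAAA was found in that of Fos alone, and in 12.4% of all windows. The full CRE TGACGTCA (1.55% of all windows), the AP-1 motif TGANTCA (6.75%) and the CArG box bound by SRF (1.47%) were found in none of the 7. Bases further upstream were not searched, so these promoters may hold such motifs there. In Fos the CRE core lay at 66 to 62 and at 129 to 125 bases before the start. The CRE core matches of Klf2 and Klf4 lay upstream of the bases printed. So did those of Nr4a1 at 233 to 229 and at 213 to 209 bases before the start. The Nr4a1 window opens at a start within the gene as GENCODE draws it (chr15:101254269-101274795), since the gene has more than 1 start. A match is a description of the letters and not a bound site.

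Taken over all blocks and populations, the level of these genes differed between blocks far more than between transplanted and steady-state cells. Nr4a1, an orphan nuclear receptor known as Nur77, was close to absent in some blocks and abundant in others. In transplanted libraries its lowest, median and highest values were 0.698, 116 and 444 CPM at 5 weeks and 13.7, 136 and 407 CPM at 8 weeks. Steady-state libraries of the 5-week block held 38.1 CPM in HSC, 66.9 in HPC-1 and 144.5 in HPC-2, and those of the 8-week block 464.2, 234.7 and 101.9 CPM. At 3 weeks, by contrast, the transplanted libraries held at most 0.766 CPM with a median of 0, and all 3 steady-state libraries of that block held 0. Over the blocks of 5 and 8 weeks, 17 of 18 transplanted and 6 of 6 steady-state libraries reached 10 CPM. Over the blocks of 3, 6, 13 and 16 weeks, 1 of 36 transplanted and 1 of 12 steady-state libraries did. These blocks were grouped after their values were seen. In the 4- and 10-week blocks, which are in neither group, transplanted libraries held 0.618 to 10.1 and 1.98 to 64.2 CPM. Steady-state libraries there held 2.2 to 6.22 and 7.86 to 122 CPM. A count of 0 allows up to 3 counts, which is 0.353 to 0.845 CPM depending on the library (counting error only).

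Klf2, a zinc finger factor known to hold lymphocytes in quiescence (chr8:72319033-72321656), followed the same blocks. The medians of the 9 transplanted libraries from 3 to 16 weeks were 6.89, 36.5, 232, 5.75, 242, 118, 3.39 and 10.8 CPM. The medians of the steady-state libraries of the same blocks were 0, 21.8, 217, 16.3, 227, 127, 1.43 and 23.3 CPM. In both states the 5-, 8- and 10-week blocks were the 3 highest. In those 3 blocks all 27 transplanted libraries (44.3 to 464 CPM) and all 9 steady-state libraries (17.2 to 420 CPM) passed 10 CPM, and 11 of 36 transplanted and 5 of 12 steady-state libraries did at 3, 6, 13 and 16 weeks. The 9 transplanted libraries of the 4-week block (21.1 to 65.3 CPM) and its 2 steady-state ones (17.4 to 26.1 CPM) passed 10 CPM as well. These blocks too were chosen after their values were seen.

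Klf4, a zinc finger factor of monocyte differentiation and of pluripotency (chr4:55527143-55532466, minus strand), had transplanted medians of 0, 6.91, 40.3, 0.184, 96.3, 16.1, 0.177 and 2.31 CPM from 3 to 16 weeks. The steady-state medians of the same blocks were 0, 4.95, 27.6, 1.35, 34.8, 27.2, 1.97 and 3.06 CPM. The 5- and 8-week blocks again had the highest medians, but single libraries went against this: a transplanted library at 5 weeks held 0 CPM, and HPC-2 at steady state held 0.302 CPM in the 10-week block. Egr3, a zinc finger factor of the Egr family known from T cells (chr14:70077203-70082614), was near the limit of detection. In the 5- and 8-week blocks 3 of 18 transplanted libraries and 1 of 6 at steady state reached 10 CPM, and no library of the other 6 blocks did. At 3, 6, 13 and 16 weeks it was at 0 in 33 of the 36 transplanted libraries and 12 of the 12 at steady state.

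The AP-1 genes, Egr1 and Ier2 were detected in nearly every library. Fos, the partner of Jun in the dimer AP-1 (chr12:85473890-85477273), had transplanted medians of 230, 567, 1036, 212, 1661, 1433, 584 and 460 CPM from 3 to 16 weeks. The steady-state medians of the same blocks were 720, 523, 1422, 443, 2084, 1040, 163 and 509 CPM. At 6 weeks the highest of the 9 transplanted libraries held 351 CPM, below the lowest at 8 weeks (1043 CPM) and at 10 weeks (920 CPM), so these weeks did not overlap. They were picked after their values were seen, and the share of all genes that separate between them was not computed. Among steady-state libraries, HPC-2 held 0.372 CPM in the 3-week block and 0 CPM in the 13-week block, both of them libraries with few genes detected (3827 and 6102).

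Fosb, which also pairs with Jun (chr7:19302696-19310051, minus strand), ran from medians of 7.82 and 7.84 CPM at 6 and 3 weeks to 122 CPM at 8 weeks in transplanted libraries. Egr1, a zinc finger factor known to restrain division and exit of mouse stem cells (chr18:34859823-34864984), ran from 21.1 CPM at 6 weeks to 303 CPM at 8 weeks. Ier2, a nuclear protein named for its early response (chr8:84661331-84662852, minus strand), ran from 161 CPM at 6 weeks to 819 CPM at 10 weeks. Jun itself (chr4:95049034-95052222, minus strand) ran from 49.1 CPM at 6 weeks to 155 CPM at 10 weeks. Junb, a Jun protein whose loss in mice expands myeloid cells (chr8:84974484-84978718, minus strand), ran from 26.3 CPM at 6 weeks to 187 CPM at 8 weeks. For each of these genes the 8- or the 10-week median was the highest. The 6-week median was the lowest for all 5 of them, in Fosb almost level with that of 3 weeks. Within the 6-week block, transplanted Junb (19.6 to 50.4 CPM) lay below steady-state Junb (124 to 154 CPM) without overlap. So did Ier2 (71.1 to 237 against 315 to 698 CPM) and Fos (111 to 351 against 379 to 734 CPM). The other genes met or overlapped there, and these 3 overlapped in every other block. This block was picked after its values were seen, and the share of all genes that separate there was not computed. Jun overlaps the antisense gene Junos, and Junb overlaps Prdx2 on the opposite strand. The strand setting of the counting is not given in the sources used here, so reads of these pairs may be mixed.

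**Figure D1:**
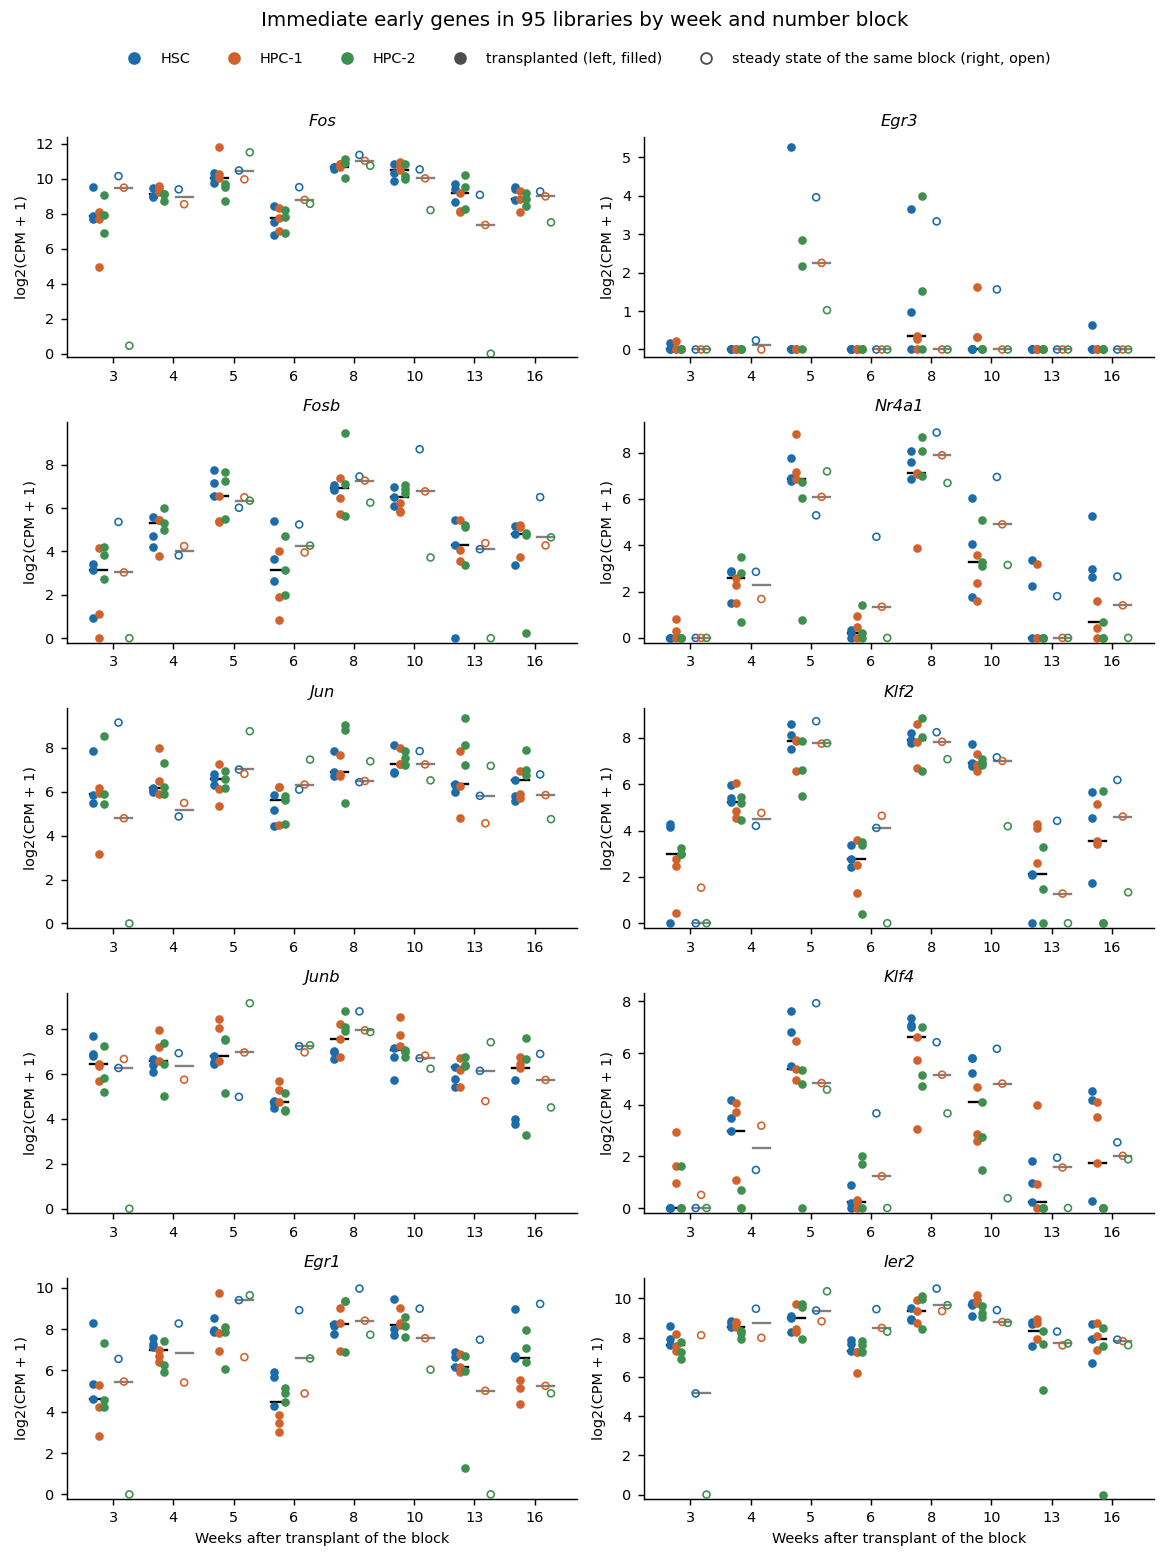
Level of each of the 10 genes as log2(CPM + 1) in all 95 libraries, by block, named by its week (evenly spaced). Filled points on the left of each block are transplanted libraries, open points on the right the steady-state libraries of that block, short lines are medians, and colours are populations. In Nr4a1, Klf2 and Klf4 both states are high at 5 and 8 weeks and low at 3, 6 and 13 weeks.

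A test of the 7 differences between weeks in the 72 transplanted libraries, with population as a covariate, was added after the data were seen. With edgeR's quasi-likelihood F test and Benjamini-Hochberg adjustment over all genes, it called 10 of 10 genes of the set, against 2591 of 15708 genes (16.5%). The adjusted p was 1.55e-13 for Fos, 1.23e-11 for Nr4a1, 3.27e-10 for Klf2, 5.66e-08 for Egr1 and 0.00414 for Jun, with the other 5 between 1e-06 and 0.000216. Leaving out the 9 libraries of the 6-week block ended the call of Jun (adjusted p = 0.121) and kept the other 9. Leaving out all libraries of 1 replicate number lowered the number of genes called to between 184 and 390, while 9 of the 10 were called each time, with Jun lost without replicate 1 (adjusted p = 0.0806) or 2 (0.0948) and Ier2 without replicate 3 (0.0691).

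The populations were also tested one at a time, with 24 libraries each. HSC called Fos, Nr4a1, Klf2 and Klf4, against 0.422% of 13492 genes. HPC-1 called Fos, Egr1, Nr4a1, Klf2 and Ier2, against 0.184% of 13078 genes, and Junb had an adjusted p of 0.0502. HPC-2 called Fos and Nr4a1, against 0.321% of 13065 genes. Fos and Nr4a1 were thus called in each population. Whether the populations differ in this was not tested.

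The same test in the 23 steady-state libraries called 0 of 9 genes of the set, and 0 of 11348 genes (0%). By edgeR 306 genes had an unadjusted p under 0.05, among them Nr4a1 (0.000305), Klf2 (0.0035) and Klf4 (0.0128). Blocks held at most 3 such libraries, and Egr3 was not tested in this fit. Without the libraries of fewer than 10000 genes, 0 of 13280 genes were called. The unadjusted p by edgeR was then 6.89e-05 for Nr4a1 and 0.000927 for Klf2. It lay between 0.00249 (Ier2) and 0.0153 (Jun) for Ier2, Fos, Junb, Fosb, Egr1 and Jun. Klf4 (0.0611) and Egr3 (0.152) were above 0.05. Without the near-identical libraries Nr4a1 (0.00417), Klf2 (0.0268) and Klf4 (0.0324) were below it. The block effect was then compared between the states in all 95 libraries. It differed for 0 of the 10 genes, against 125 of 16410 genes (0.762%), and the smallest unadjusted p of the set was that of Junb, 0.0567. This depended on the libraries. Without those of fewer than 10000 genes the unadjusted p by edgeR was 0.00179 for Junb, 0.00353 for Ier2, 0.0345 for Jun and 0.035 for Fos. None of the set was called there either (0.0153% of 19584 genes). Without the near-identical libraries the smallest was that of Jun, 0.0307. A p above the threshold does not show that the states shared the pattern.

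Of the variance of log2(CPM + 1) over 95 libraries, the block took 78.7% in Nr4a1, 75.2% in Klf2, 63.1% in Klf4, 57.3% in Fosb, 45.1% in Egr1 and 40.2% in Fos. Ier2 had 35.0%, Junb 30.3% and Jun 20.3%. Over the 8362 genes whose mean reached 10 CPM the median was 9.83% and the 95th percentile 22.0%. Ordered by this share, Nr4a1 was number 2 of 8362, Klf2 number 3, Klf4 number 5, Fosb number 9 and Egr1 number 18, while Jun was number 617. The state took at most 1.46% in these 9 genes, and the population at most 10.2% (Klf4). The state share is that of a single difference averaged over blocks and populations, so opposite signs can cancel in it. Egr3 had a mean below 10 CPM and is not in this ranking.

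**Figure D2:**
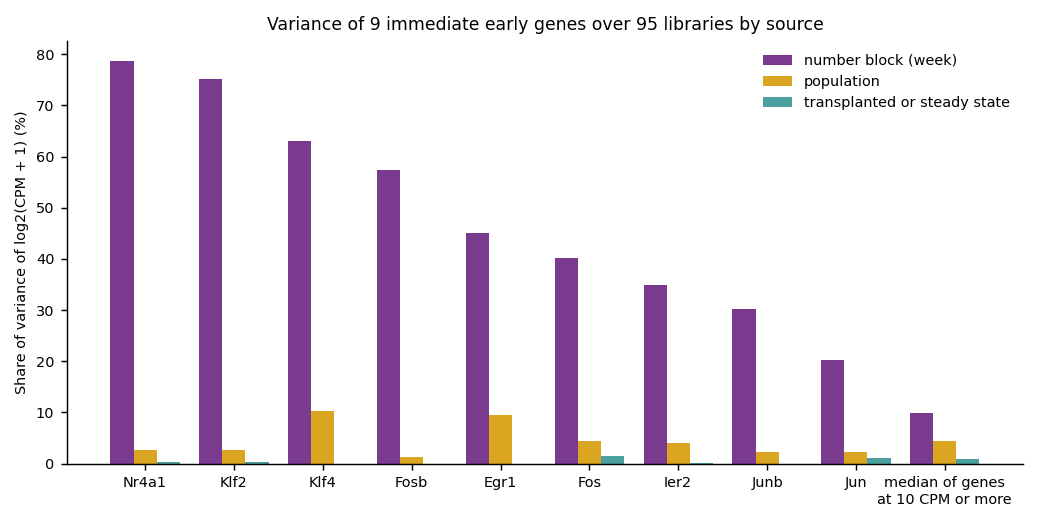
Share of the variance of log2(CPM + 1) over 95 libraries taken by block, by population and by state, in percent, for 9 of the 10 genes and as the median of 8362 genes. The block bar runs from 20.3% in Jun to 78.7% in Nr4a1, against 9.83% for the median gene.

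Whether transplanted HSC differed from steady-state HSC was asked within blocks, so that each steady-state library was set against the 3 transplanted libraries of its own block. None of the 10 genes was called in HSC (edgeR, 0 of 10, against 0.113% of 14209 genes, with 841 genes at an unadjusted p under 0.05). All 10 estimates were negative, with a median log2 change of -0.85, against 0.07 over all genes tested. The genes move together from library to library, so these are not 10 independent observations.

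Egr1 in HSC came closest to a call. Its transplanted libraries held 23.8, 40.2 and 310 CPM at 3 weeks, against 93.4 CPM in the steady-state library of that block. At 6 weeks they held 18.7, 60.7 and 49.6 CPM, against 482.4 CPM at steady state, and at 8 weeks 303, 216 and 283 CPM, against 998.4 CPM. All 3 transplanted libraries were below the steady-state one in 6 of 8 blocks, and their mean log2 level was below it in 8 of 8. The exceptions were 1 library each at 3 weeks, with 310 CPM, and at 10 weeks, with 710 CPM against 508.2 CPM. The share of all genes with such block counts was not computed. At 4 weeks the values were 189, 155 and 138 CPM, against 308.4 CPM at steady state, and at 5 weeks 247, 232 and 372 CPM, against 677.3 CPM. The 13-week libraries held 100, 120 and 71.1 CPM, against 178.8 CPM, and the 16-week ones 104, 97.4 and 504 CPM, against 596.4 CPM. By edgeR's quasi-likelihood test the log2 change was -1.32 (SE 0.38), with an adjusted p of 0.284. The exact two-sided permutation test within blocks (65536 arrangements) gave p = 0.00174, with an adjusted p of 0.237. Few genes were detected in 3 of the 8 steady-state HSC libraries, against 2 of 24 transplanted ones. Those at steady state were of the 3-week (8091 genes), 5-week (7779) and 16-week (8590) blocks. The steady-state library of the 3-week block was also near-identical to replicate 1 of HPC-2 at 13 weeks.

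The call of Egr1 depended on the setting. It was called lower by limma voom with sample weights (log2 change -1.25, adjusted p = 0.00611) and by edgeR without the 3-week replicate that held 310 CPM (log2 change -1.50, adjusted p = 0.0354). With 1 mean per week and no block, 4 of the 10 genes were called lower in transplanted HSC, against 5.31% of genes, and in that fit the median of all genes was -0.39. They were Egr1 (log2 change -1.48, adjusted p = 0.0215), Nr4a1 (-3.79, 0.0159), Klf4 (-3.14, 0.0215) and Egr3 (-4.51, 0.0319). For Nr4a1, Klf4 and Egr3 all 3 transplanted HSC libraries were at 0 in at least 1 week, so these fitted changes depend on the prior count and are no bounds.

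Of the other genes in HSC, Fos had a log2 change of -0.56 (SE 0.21, adjusted p = 0.595) and Junb of -0.87 (SE 0.38, adjusted p = 0.772). Over all blocks Fos held between 111 and 1817 CPM in transplanted HSC with a median of 718, and between 541 and 2638 CPM at steady state with a median of 936, so the groups overlapped widely. Nr4a1, Egr3, Fosb, Klf4, Klf2, Jun and Ier2 had log2 changes from -1.51 (Egr3) to -0.35 (Ier2), each with an adjusted p of 1.

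HPC-1 and HPC-2 did not show a change of the set in either direction that passed the test. In HPC-1, 0 of 9 genes were called (0.117% of 13717 genes; 1058 genes at an unadjusted p under 0.05), 5 of 9 estimates were positive and their median was 0.01, against -0.04 over all genes. Egr1 had a log2 change of 0.07 (SE 0.35) in HPC-1. In HPC-2, 0 of 10 genes were called (0% of 13436 genes; 1231 at an unadjusted p under 0.05, and DESeq2 called 970 genes and none of the set). There 9 of 10 estimates were positive with a median of 0.74, beside a median of 0.51 over all genes. Klf2 had the largest estimate, 2.60 (SE 1.33, adjusted p = 0.572). Klf2 held 0, 0, 0, 1.52, 17.2, 134.2 and 217.2 CPM in the 7 steady-state HPC-2 libraries, and between 0 and 464 CPM with a median of 28.1 in the 24 transplanted ones. Of those steady-state libraries 4 had fewer than 10000 genes detected, against 3 of 24 transplanted ones.

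By week means, Nr4a1 was called lower in HPC-1 (log2 change -3.38, adjusted p = 0.0346, 1.39% of genes called) and in HPC-2 (-4.37, adjusted p = 0.0498, 1.15% called). Within blocks the estimates were -0.53 (SE 0.77) in HPC-1 and 0.86 (SE 1.07) in HPC-2, so the direction in HPC-2 turned with the fit. All 3 transplanted HPC-2 libraries were at 0 at 3 and at 13 weeks, so the fitted change by week means there depends on the prior count as well. The transplant effect itself was compared between populations, and 0 of the 10 genes differed: 0.0427% of all 16410 genes were called for HSC against HPC-1, 2.36% for HSC against HPC-2 and 0.183% for HPC-1 against HPC-2. The difference for Egr1 was -1.74 (SE 0.76, adjusted p = 0.464) between HSC and HPC-1 and -1.69 (SE 0.79, adjusted p = 0.277) between HSC and HPC-2.

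**Figure D3:**
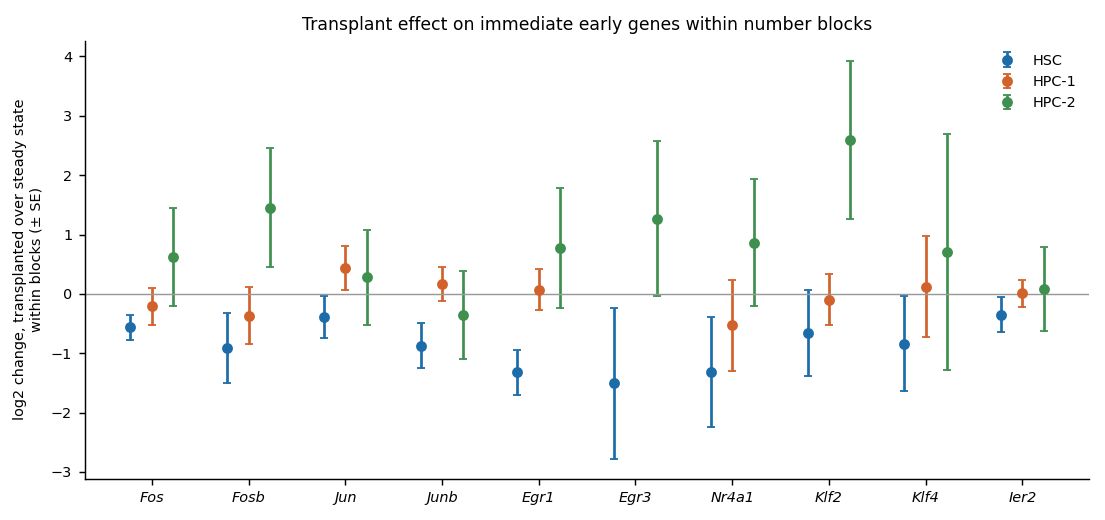
Log2 change of transplanted over steady-state libraries within blocks for each gene, with bars of 1 SE, by population. All HSC estimates lie below 0, from -1.51 to -0.35, and none of the points passed an adjusted p of 0.05; Egr3 was not tested in HPC-1.

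By edgeR, single weeks set against all steady-state libraries of a population called no gene of the set in any of the 24 comparisons. At 3 weeks in HSC, however, Nr4a1, Klf4, Fosb and Ier2 were called lower than at steady state without the libraries of fewer than 10000 genes (adjusted p = 0.0142, 0.0087, 0.0491 and 0.031, against 0.974% of genes), and Nr4a1 and Klf4 without the near-identical ones (0.0192 and 0.0156, against 0.67%). All 3 transplanted HSC libraries of that week, and the steady-state one of its block, which both settings leave out, were at 0 for Nr4a1 and Klf4. Over all tests of single weeks, edgeR called 0.00528% of gene tests in HSC, 0.00456% in HPC-1 and 0.00651% in HPC-2. DESeq2 called more. In HSC at 6 weeks it called 7 genes of the set (Egr1, Egr3, Fos, Junb, Klf2, Klf4 and Nr4a1), among 145 of 14209 genes. In HPC-1 it called 5 at 3 weeks (351 of 13717 genes called) and 5 at 6 weeks (37 called). It called 0 of the set at 5 and at 8 weeks in HSC (627 and 643 genes called). The signs of the edgeR estimates followed the blocks. In HPC-1, 9 of 9 estimates were positive at 5 and at 8 weeks and 0 of 9 at 3 and at 6 weeks. In HSC the median log2 change of the set was -2.88 at 6 weeks and 0.40 at 8 weeks. The smallest edgeR p was that of Fos in HSC at 6 weeks, with a log2 change of -2.28 (SE 0.46, adjusted p = 0.124). Its 3 transplanted libraries held 111, 183 and 351 CPM, against 541 to 2638 CPM over the 8 steady-state libraries, without overlap, and 733.8 CPM in the steady-state library of the same block. The share of all genes without overlap in this comparison was not computed. A trend over the logarithm of weeks was called for no gene of the set in HSC (0.26% of gene tests called), HPC-1 (0.185%) or HPC-2 (0.402%), and the levels went up and down more than once between 3 and 16 weeks.

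Between populations, 1 or 2 of the 10 genes were called in each comparison, a share near that of all genes. Egr1 was called higher in HSC than in HPC-1 and HPC-2, and Klf4 lower in HPC-2 than in HSC and HPC-1, but the 3 calls against HPC-2 were lost without either set of libraries in doubt. These comparisons were made within block and state over all 95 libraries. In HSC against HPC-1, 1 of 10 genes was called, against 12.4% of 16410 genes, which is Egr1 with a log2 difference of 1.27 (SE 0.35, adjusted p = 0.00651). Egr1 had a median of 172 CPM (18.7 to 710) in transplanted HSC and 93.0 CPM (6.17 to 861) in transplanted HPC-1. At steady state the median was 495 CPM (93.4 to 998) in HSC and 42.4 CPM (28.6 to 340) in HPC-1. In 8 of 8 blocks the steady-state HSC library was above that of HPC-1.

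In HSC against HPC-2, 2 of 10 genes were called, against 10.8% of genes. Egr1 was higher by 1.09 (SE 0.35, adjusted p = 0.029) and Klf4 by 2.38 (SE 0.71, adjusted p = 0.0187) on the log2 scale. In HPC-1 against HPC-2, Klf4 alone was called, with 2.17 (SE 0.72, adjusted p = 0.0357), against 10.9% of genes. Klf4 was at 0 in 12 of 24 transplanted HPC-2 libraries, against 4 of 24 in HSC and 2 of 24 in HPC-1. Its medians in transplanted cells were 13.6 CPM in HSC, 7.05 CPM in HPC-1 and 0.315 CPM in HPC-2, and the ranges overlapped. The 3 calls against HPC-2 were lost without the libraries of fewer than 10000 genes (Egr1 0.68, adjusted p = 0.171; Klf4 1.81 in HSC, 0.103; Klf4 1.42 in HPC-1, 0.24). They were also lost without the near-identical libraries, where the differences were 0.86, 2.19 and 2.05 with adjusted p of 0.144, 0.0506 and 0.0833 in the same order. Egr1 in HSC over HPC-1 was called without either set (1.00, adjusted p = 0.0114, without few-gene libraries; 1.33, 0.0163, without near-identical ones).

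Fitted in 1 state alone, the calls of Egr1 and Klf4 were lost as well, with the same sign. Egr1 in HSC over HPC-1 had 0.89 (SE 0.32, adjusted p = 0.0597) in transplanted and 2.33 (SE 1.00, adjusted p = 0.809) in steady-state libraries. In transplanted libraries Junb was called lower in HSC than in HPC-1, by a log2 difference of -0.70 (SE 0.22, adjusted p = 0.0307). Junb had a median of 84.5 CPM (12.5 to 205) in transplanted HSC and 99.9 CPM (26.3 to 369) in transplanted HPC-1. Fos, Fosb, Jun, Klf2 and Ier2 were called in none of the 3 comparisons, with estimates from -0.58 (Jun, HPC-1 over HPC-2) to 0.81 (Klf2, HSC over HPC-2). Nr4a1 in HSC over HPC-2 had 1.65 (SE 0.65, adjusted p = 0.0857), and it was called by limma voom (1.48, adjusted p = 0.0286), where Egr1 was not (0.67, 0.0578), and by edgeR without the filter (1.69, 0.0195).

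**Figure D4:**
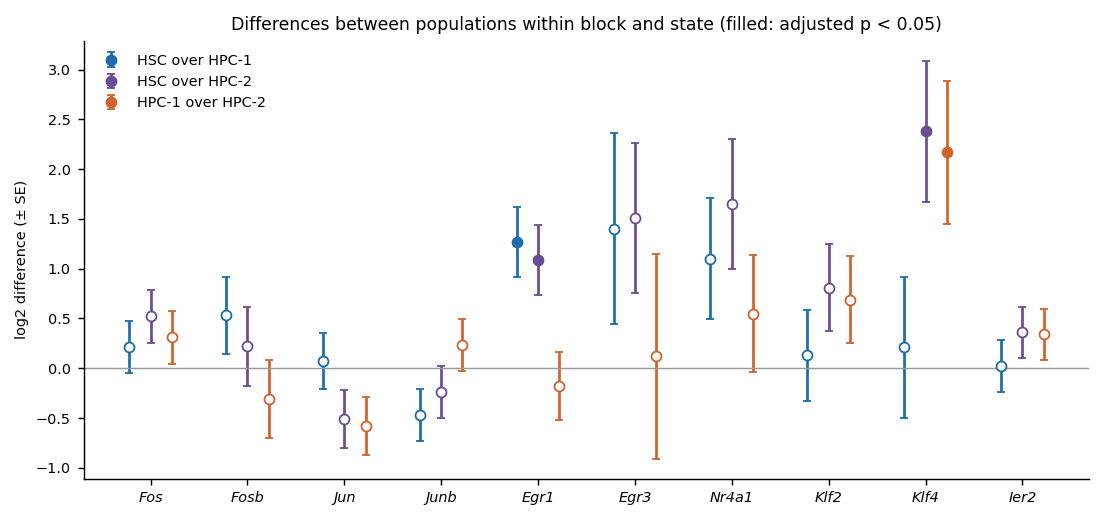
Log2 difference between populations within block and state for each gene, with bars of 1 SE. Filled points passed an adjusted p of 0.05: Egr1 in HSC over HPC-1 (1.27) and over HPC-2 (1.09), and Klf4 in HSC (2.38) and HPC-1 (2.17) over HPC-2.

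Some other early genes also differed between weeks. In the test of weeks in transplanted libraries, 4 of 7 other AP-1 genes, 4 of 9 other Egr, Nr4a and Klf genes, 14 of 24 other early response genes and 2 of 9 feedback phosphatases and repressors were called, beside the 16.5% of all genes. The 4 with the smallest p were Dusp1 (adjusted p = 1.07e-10), a dual-specificity phosphatase that is itself an early gene, Zfp36 (8.75e-09), which destabilises mRNAs of early genes, Klf6 (1.68e-08) and Atf3 (3.38e-08), a CREB-family factor induced by stress.

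Atf3 was high in the 5- and 8-week blocks in both states. Its transplanted medians from 3 to 16 weeks were 0, 0.859, 230, 0, 187, 7.91, 0 and 0.221 CPM, and the steady-state medians of the same blocks were 0, 0.22, 198, 0, 150, 8.27, 0 and 0 CPM. Every steady-state library of the 5- and 8-week blocks held at least 138 CPM of Atf3, and no steady-state library of the other 6 blocks held more than 38.2 CPM. The transplanted libraries overlapped: the lowest held 7.5 CPM at 5 weeks and 12.1 CPM at 8 weeks, and single libraries reached 56.2 CPM at 16 weeks, 51.0 CPM at 10 weeks and 27.0 CPM at 4 weeks. Dusp1 had transplanted medians from 158 CPM at 6 weeks to 1229 CPM at 10 weeks, and Klf6 from 19.6 CPM at 6 weeks to 545 CPM at 8 weeks. In steady-state libraries none of these lists held a called gene, and neither did the test of block by state.

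The summed level of the 10 genes had medians of 647, 1324, 2412, 505, 3726, 3164, 1255 and 1155 CPM from 3 to 16 weeks in transplanted libraries. At steady state the medians of the same blocks were 1177, 1348, 3702, 1137, 4058, 2227, 522 and 927 CPM. Heat shock genes, which mark another stress response, had another order: their sum was highest in transplanted libraries at 3 weeks (median 7553 CPM, 4449 to 8306) and lay between 2789 and 4113 CPM in the other weeks, with 4 of 8 genes called (16.5% of all genes, as for each list here). Granulocyte markers had 0 of 7 genes called, and their sum was high in the steady-state libraries of the 8-week block (5070, 7515 and 9106 CPM) but not in those of the 5-week block (0.21, 15.2 and 392 CPM), where the early genes were also high. Monocyte and macrophage markers had 5 of 6 genes called, with medians of their sum between 0.179 and 68.9 CPM over the weeks and single libraries up to 2731 CPM. Called markers of other cells were 3 of 5 for B cells, 1 of 4 for T and NK cells, 1 of 2 for endothelial and stromal cells and 0 of 5 for erythroid and 0 of 6 for megakaryocyte genes, while 0 of 4 sort markers, 3 of 6 HSC markers and 1 of 4 multipotent progenitor markers were called. The part of these cells in the block pattern was not tested.

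**Figure D5:**
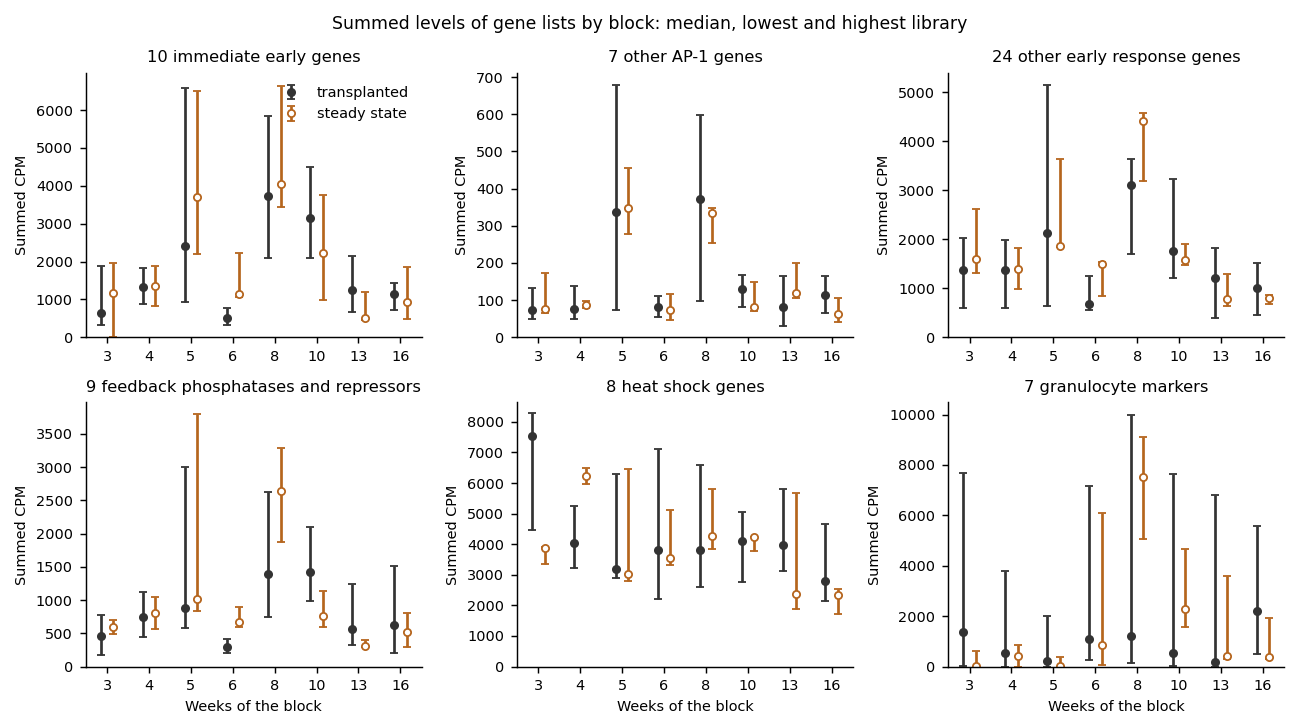
Summed CPM of 6 gene lists by block, named by its week, with the median (point) and the lowest and highest library (bar), for transplanted libraries (filled, left) and steady-state libraries (open, right). The 10 genes are highest at 8 weeks in both states, and the 7 other AP-1 genes stand out at 5 weeks (medians of 336 CPM transplanted and 347 CPM at steady state) and 8 weeks (372 and 334 CPM).

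Within groups of the same population, state and week, libraries still differed in these genes, and the genes went up and down together. Pearson's r over 95 libraries, with each gene centred within its group, was 0.87 for Fos and Egr1, 0.73 for Nr4a1 and Klf2, 0.69 for Klf2 and Klf4 and 0.65 for Jun and Junb. It was 0.22 for Jun and Klf4 and 0.11 for Jun and Egr3. Libraries share depth and gene detection, and groups of 1 steady-state block are centred with the other blocks, so these values describe the libraries and carry no test. The genes whose centred level was most like the mean of the 10 were Klf6 (r = 0.773), Zfp36 (0.755), Rgs1 (0.727), Atf3 (0.685), Ier3 (0.671), Nfkbiz (0.661), Btg2 (0.661), Ccnl1 (0.658), Yrdc (0.653) and Rgcc (0.636), out of the genes whose mean reached 10 CPM.

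Between populations, the other early genes did not all go with Egr1 and Klf4. By edgeR, Nfkbiz (log2 difference 1.81, adjusted p = 0.0185) and Nr4a2 (1.71, 0.038) were called higher in HSC than in HPC-2. Nfkbiz (2.43, 0.000854), Zfp36 (1.34, 0.00146) and Dusp2 (1.84, 0.00343) were called higher in HPC-1 than in HPC-2. Dusp2 was called lower in HSC than in HPC-1 (-1.42, 0.0239). Whether these calls hold without the libraries in doubt is not given here. Dusp5, a nuclear dual-specificity phosphatase, was lower in HSC than in HPC-1 by a log2 difference of -4.09 (SE 0.75, adjusted p = 2.27e-05) and higher in HPC-1 than in HPC-2 by 5.03 (SE 0.77, adjusted p = 7.79e-07). Its median in transplanted cells was 0.139 CPM in HSC, 12.5 CPM in HPC-1 and 0.0872 CPM in HPC-2, and at steady state 6.97 CPM in HSC, 14.8 CPM in HPC-1 and 0 CPM in HPC-2. Dusp5 was detected in all 32 HPC-1 libraries. Myc, a growth factor-induced early gene, was lower in HSC than in HPC-1 by -0.97 (SE 0.21, adjusted p = 0.000426) and than in HPC-2 by -0.86 (SE 0.22, adjusted p = 0.00463). Fosl1, another Fos protein, was at 0 in 31 of 32 HSC libraries and was called lower there than in both other populations. It was, however, also at 0 in 19 of 32 HPC-1 and 24 of 31 HPC-2 libraries. Its highest values were 10.5 CPM in HPC-1 and 10.1 CPM in HPC-2, so these calls rest on few libraries near the limit of detection. These calls of Dusp5, Myc and Fosl1 held without the libraries of fewer than 10000 genes and without the near-identical ones. Of the whole lists, 1 of 7 other AP-1, 1 of 9 other Egr, Nr4a and Klf, 1 of 24 other early response and 2 of 9 feedback genes were called in HSC against HPC-1, beside 12.4% of all genes.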

How the data were processed

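The authors deposited raw counts per gene for 95 libraries. Per the submitters' processing notes the tools were Trimmomatic 0.36, HISAT2 2.0.5, Picard and featureCounts on GRCm38 (mm10); neither the strand setting nor the annotation release is given there. GENCODE M21, used for positions, held 99.6% of the 53465 gene IDs.

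Groups were taken from titles. CPM is the count scaled to the library's total and is not per length, so levels are compared within a gene only. Genes were kept by filterByExpr, scaled by TMM and tested with the quasi-likelihood F test of edgeR 4.0.16 (R 4.3.3), with Benjamini-Hochberg adjustment over all genes and a threshold of 0.05; SE comes from the F statistic. Population differences were fitted within 16 cells of block and state. Alternatives were DESeq2 1.42.0, limma 3.58.1 voom with sample weights, RLE scaling, no filter, week means, no block, a replicate block, each state alone, exact permutation within blocks, leaving out single libraries, and leaving out libraries with fewer than 10000 genes or nearly equal counts. Tests of weeks within transplanted libraries and of block by state were added after seeing the data. The fits were tested on simulated data.

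The genes and the lists were chosen with earlier results of these data known, and 1 list is not reported here. Named were the 10 genes, up to 4 listed early genes with the smallest p for a comparison, and the 10 genes of highest r with the set. No step separates depth from amplification, and intervals of a count of 0 cover counting error only.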

Additional observations from a re-analysis of the deposited data

Results flagged for a closer look

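Of 30 groups of 7 or 8 steady-state libraries checked, 3 held a library far from the others on the log2(CPM + 1) scale. The limit used would flag about 1 in 20 groups of normally distributed values. That rate does not apply to Egr3, since a gene at 0 in all libraries of a group but 1 is always flagged. Egr3 in HPC-1 at steady state was 2.25 in replicate 3, the library of the 5-week block, and 0 in the other 7. Egr3 in HPC-2 at steady state was 1.02 in replicate 2, also of the 5-week block, and 0 in the other 6. Ier2 in HPC-2 at steady state was 0 in replicate 1, of the 3-week block, in which 3827 genes were detected, and the next lowest value was 7.61.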

How the results depend on the processing

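The transplant effect within blocks called 0 genes of the set in each population. In HSC it called 4 by week means and 1 by limma voom, and leaving out single libraries gave 0 to 1. By week means it called 1 in HPC-1 and 1 in HPC-2, where Nr4a1 turned to -4.37. For single weeks in HSC, 1 gene test was called without the filter, 4 without libraries under 10000 genes and 2 without near-identical libraries (both settings at 3 weeks), and 17 by DESeq2, and leaving out single libraries gave 0 to 2 (2 without steady-state replicate 1). DESeq2 called 11 such tests in HPC-1 and 5 in HPC-2. Over all genes DESeq2 called, per week, 120 to 946 of 14209 in HSC and 9 to 351 of 13717 in HPC-1. In HPC-2 it called 262 to 1983 of 13436 per week. The cause was not tested.

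Between populations, HSC against HPC-1 (1 gene) gave 0 in steady-state libraries alone. HSC against HPC-2 (2 genes) gave 4 without the filter (Fos and Nr4a1 added), 2 by limma voom (Nr4a1 in place of Egr1), 1 under RLE scaling, and 0 without libraries under 10000 genes, without near-identical libraries, or in either state alone. HPC-1 against HPC-2 (1 gene) gave 0 in those 4 settings and by limma voom. The test of weeks gave 4, 5 and 2 in HSC, HPC-1 and HPC-2 alone and 9 without each replicate number.

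Libraries of 3 consecutive numbers (a triad), at most 1 of each population, were not taken as paired. In no comparison of populations did every pair within triads pass a correlation of 0.1. The median correlation of deviations within triads was between -0.025 and 0.141. It was highest in steady-state HSC and HPC-1 (0.047 to 0.234, 6 of 8 pairs over 0.1), against -0.026 for other pairs. In transplanted HPC-1 and HPC-2 9 of 24 pairs passed 0.1, up to 0.601, and the median was 0.04 against -0.026. Transplanted HSC had 0.024 against -0.016 with HPC-1 and 0.032 against -0.015 with HPC-2. Steady-state HPC-2 had -0.025 against 0.013 with HSC and -0.025 against -0.005 with HPC-1. The test of weeks took libraries of a triad as independent, so its p may be too small. With the replicate number as block, the slope over weeks in HPC-2 called 5 gene tests against 0. These were 3 in the steady-state slope (1620 of 13436 genes called) and 2 in the difference between the slopes of the states (1662 of 13436). Each steady-state library of a population has its own replicate number, so this setting hardly separates replicate from week there. With the triad as block, HSC against HPC-2 called 3 genes (Nr4a1 added, log2 difference 2.15, adjusted p = 0.0482). The test of weeks, with the replicate number as block, called 10. No other count of the set changed under a replicate block. Of the counts under planned or added settings other than left-out libraries, 91 stayed within 1.5 times the reported one and 26 did not. The 7 steady-state HPC-2 libraries, 4 with few genes detected, limit what could be seen in that population.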

Other observations

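The near-identical pairs also carried nearly the same levels of the early genes across labels. Replicate 1 of HPC-1 at 5 weeks and replicate 2 of HPC-2 at 8 weeks held 140 and 124 CPM of Nr4a1, and replicate 1 of HPC-2 at 13 weeks and replicate 1 of steady-state HSC held 661 and 570 CPM of Jun. The HPC-2 libraries of 5 weeks (replicate 2) and 4 weeks (replicate 1) held 0.698 and 0.618 CPM of Nr4a1, and the library labelled 5 weeks is the 1 of 18 at 5 and 8 weeks below 10 CPM.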
